A study of Mus musculus with 7 samples.

Results

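Azurophil granules are the first granules that a developing neutrophil makes, and their contents are transcribed mainly at the promyelocyte stage. Described here are 8 genes of these granules and of that stage: Mpo, Elane, Prtn3, Ctsg, Prss57, Ctsc, Srgn and Ms4a3. They were chosen by symbol from the 35976 rows of a gene count table. They are called the granule genes below, with Ms4a3 included as a gene of the promyelocyte stage. All 8 had enough reads to be tested, among 14679 tested genes. RNA was sequenced from lineage-negative cells of E14.5 mouse fetal livers, a fraction depleted with magnetic beads of cells that carry markers of mature blood lineages. The control group (n = 3 libraries) was CD45.2(+) Brd9fl/fl, and the knockout group (n = 4 libraries) was CD45.2(+) Vav1-iCre Brd9fl/fl. Both groups were C57BL/6 and carried floxed Brd9, which encodes a bromodomain subunit of non-canonical BAF, a chromatin remodeller. Embryos came from Vav1-iCre; Brd9fl/fl dams and Brd9fl/fl sires. Vav1-iCre is a recombinase expressed in blood cells from early in development, so non-blood cells of the liver would keep Brd9. The recombinase was in every knockout and in no control, so its own effect and that of Brd9 loss cannot be told apart. The labels do not say whether each library was a separate embryo, and p-values therefore measure the spread between libraries, which may be technical.

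The granule stores its enzymes ready for use. Myeloperoxidase, encoded by Mpo, is a haem enzyme that makes hypochlorous acid. Elane, Prtn3, Ctsg and Prss57 encode the neutrophil serine proteases elastase, proteinase 3, cathepsin G and the trypsin-like NSP4. These are made as inactive proforms, and the cysteine protease cathepsin C, the product of Ctsc, activates them by clipping a dipeptide from the amino terminus. Srgn encodes serglycin, a proteoglycan whose negatively charged chains hold basic proteases in the granule. Ms4a3 encodes a four-pass membrane protein that marks granulocyte-monocyte progenitors. Several of these genes are textbook targets of the transcription factors C/EBP alpha and epsilon, PU.1, RUNX1 and MYB, and most are silenced again as the neutrophil matures.

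Sequences upstream of Elane, Prtn3 and Ctsg are shown because Elane fell further than the related Prtn3 and Ctsg in the comparison described further on. Each is the 250 bases before the RefSeq transcription start in GRCm38.p6, read 5′ to 3′ on the strand of the gene. Capitals mark matches, on either strand, to 4 short motifs: TTGCNNAA for C/EBP, GAGGAA for PU.1, TGTGGT for RUNX and AACNG for MYB. The Elane window is chr10:79886062-79886311 on the plus strand, the Prtn3 window is chr10:79879417-79879666 on the plus strand, and the Ctsg window is chr14:56102575-56102824 on the minus strand.
Elane: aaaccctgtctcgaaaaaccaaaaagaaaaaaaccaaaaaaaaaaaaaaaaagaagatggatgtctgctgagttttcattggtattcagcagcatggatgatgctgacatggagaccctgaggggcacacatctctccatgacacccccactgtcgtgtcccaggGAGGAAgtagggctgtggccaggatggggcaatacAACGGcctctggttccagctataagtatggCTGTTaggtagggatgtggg
Prtn3: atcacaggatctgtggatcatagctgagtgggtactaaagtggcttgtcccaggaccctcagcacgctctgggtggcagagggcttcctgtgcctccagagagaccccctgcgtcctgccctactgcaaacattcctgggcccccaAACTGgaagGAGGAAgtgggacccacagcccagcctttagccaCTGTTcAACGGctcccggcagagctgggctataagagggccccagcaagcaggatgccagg
Ctsg: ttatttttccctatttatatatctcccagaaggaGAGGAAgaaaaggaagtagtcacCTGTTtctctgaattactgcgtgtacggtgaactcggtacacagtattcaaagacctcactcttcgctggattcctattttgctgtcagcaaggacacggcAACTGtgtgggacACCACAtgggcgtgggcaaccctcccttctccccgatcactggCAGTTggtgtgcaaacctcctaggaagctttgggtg
All 3 windows held 1 copy of GAGGAA, which begins 85 bases upstream of the start in Elane, 95 in Prtn3 and 216 in Ctsg. Elane held 2 matches of AACNG or its reverse complement, and Prtn3 and Ctsg held 3 each. Ctsg alone of the 3 held the RUNX motif, read on the opposite strand as ACCACA and beginning 79 bases upstream. Promoter windows were found for 7 of the 8 genes, all but Prss57, and Srgn had 2 windows for 2 starts. The Ctsc window, chr7:88277835-88278084, ends just before the GENCODE M21 start at 88278085. It runs into the RefSeq span of Ctsc, which starts at 88278024. The AACNG match of Ctsc, 38 bases before the start used, lies within that span. GAGGAA was in 5 of the 7 genes (Mpo, Elane, Prtn3, Ctsg and Ctsc), and in 23.3% of the 32851 RefSeq promoter windows of the same length. TGTGGT was in Ctsg and in 1 of the Srgn windows, against 14.0% of all windows, and AACNG was in 6 of the 7 genes, against 74.2%. TTGCNNAA was in none of the 7, against 9.56% of all windows. No match of one motif overlapped a match of another. These are matches of letters in a window, and binding was not measured. The RefSeq start differed from that of GENCODE M21 by 65 bases for Elane, 5191 for Prtn3, 203 for Mpo and 0 for Ctsg. A window before the GENCODE start of Prtn3 would hold other sequence, and one before that of Elane or Mpo partly other sequence. None of these was examined. Both AACNG matches of Elane, 50 and 20 bases before its RefSeq start, lie after its GENCODE start. So does the AACNG match of Mpo, 165 bases before its RefSeq start. The counts of matches thus depend on the start chosen.

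Brd9 transcript fell from 33.1 ± 3.0 (SD, n = 3) to 11.5 ± 2.0 CPM (SD, n = 4), with no overlap between the groups (log2 fold change -1.53, SE 0.15, edgeR adjusted p = 0.0037). The progenitor receptor gene Kit was present in every library, and so were transcripts of hepatocytes, whose markers summed to at least 10578 CPM. Total counts ran from 18748885 to 23571878 per library. CPM is a count scaled to its library's total after TMM normalization. Genes counted as fallen or risen had a Benjamini-Hochberg adjusted p under 0.05 in edgeR's quasi-likelihood test over all tested genes. By this rule 80 genes fell, 0.545% of those tested, and 2 rose (0.0136%). Of the 8 granule genes 7 fell and Ctsc did not pass. Their median log2 fold change was -1.46, against 0.011 over all tested genes. In all 8 genes every knockout library lay below every control library, an ordering found in 6.81% of tested genes. At an unadjusted p under 0.05 edgeR had all 8 lower, against 6.9% of tested genes. DESeq2 called all 8 as lower, against 1.95% of the genes to which it gave an adjusted p (0.33% were called higher). The authors' deposited table, also from DESeq2, lists all 8 at an adjusted p under 0.05, against 1.88% of its genes listed as lower. In bulk RNA, fewer cells of a type and less of a transcript per cell cannot be told apart, and this holds for each value that follows.

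Mpo was the most abundant of the 8. Control libraries held 2661, 4609 and 3255 CPM and knockout libraries 761, 1093, 1596 and 1038 CPM. The highest knockout reached 60.0% of the lowest control. Among all 35976 genes of the count table Mpo ranked between 4 and 20 by CPM in the control libraries, and between 53 and 142 in knockouts. The mean went from 3508 ± 999 (SD, n = 3) to 1122 ± 348 CPM (SD, n = 4), a 3.13-fold fall (log2 fold change -1.64, SE 0.25, adjusted p = 0.0231). Mpo lies at chr11:87793784-87804412. It did not pass once control replicate 2 or 3, or knockout replicate 1, 2 or 4, was left out, where the adjusted p lay between 0.0559 and 0.106.

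Elane showed the deepest fall of the 8. It had 251, 460 and 392 CPM in controls and 41.8, 44.7, 74.2 and 38.2 CPM in knockouts. Even the highest knockout library held only 29.5% of the lowest control. The mean went from 368 ± 106 (SD, n = 3) to 49.7 ± 16.5 CPM (SD, n = 4), a 7.39-fold fall (log2 fold change -2.89, SE 0.26, adjusted p = 0.0020). Elane ranked between 265 and 703 in controls and between 3146 and 5546 in knockouts. It was called in each of the 7 fits that left out a library (adjusted p from 0.0015 to 0.0172). The gene lies at chr10:79886312-79888216 on the plus strand.

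Prss57, which encodes the protease of lowest abundance, fell next most. It had 20.3, 34.5 and 35.1 CPM in controls and 4.37, 4.20, 7.15 and 4.53 CPM in knockouts. Its mean fell 5.91-fold, from 30.0 ± 8.4 (SD, n = 3) to 5.06 ± 1.40 CPM (SD, n = 4), at -2.56 on the log2 scale (SE 0.25, adjusted p = 0.0031). Like Elane it was called in all 7 fits that left out a library (adjusted p from 0.0015 to 0.0246). Prss57 lies on the minus strand at chr10:79781474-79794684 in RefSeq, where its span overlaps those of Palm and Fstl3 on the plus strand. In GENCODE M21 it ends at 79790961, short of Palm at 79793572, and still overlaps Fstl3. The strand setting of the counting is not given in the sources used here, so reads in the overlap could be counted for either gene, and its value is uncertain to that extent.

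Prtn3 had 415, 700 and 600 CPM in controls and 193, 180, 283 and 161 CPM in knockouts. It lies at chr10:79879667-79883174, on the plus strand and 3138 bases from Elane. Its mean went from 572 ± 145 (SD, n = 3) to 204 ± 54 CPM (SD, n = 4), a 2.80-fold fall (log2 fold change -1.49, SE 0.22, adjusted p = 0.0176). Ctsg, on another chromosome at chr14:56099885-56102574, fell by much the same factor. It had 150, 248 and 236 CPM in controls and 85.9, 68.4, 99.6 and 57.6 CPM in knockouts. The mean fell 2.71-fold, from 211 ± 53 (SD, n = 3) to 77.8 ± 18.6 CPM (SD, n = 4), at -1.44 on the log2 scale (SE 0.21, adjusted p = 0.0176). For both genes all 4 knockouts were low and all 3 controls high. Neither passed once control replicate 2 or 3, or knockout replicate 1, 2 or 4, was left out, with adjusted p from 0.0623 to 0.0956 for Prtn3 and from 0.0576 to 0.101 for Ctsg.

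Ctsc, the activator of the 4 proteases, had the smallest difference. It stood at 63.0, 72.0 and 55.6 CPM in controls and 42.3, 45.2, 54.2 and 43.0 CPM in knockouts. The groups did not overlap, but the highest knockout was at 97.5% of the lowest control. Means of 63.5 ± 8.2 CPM (SD, n = 3) and 46.2 ± 5.5 CPM (SD, n = 4) differed by -0.46 on the log2 scale (SE 0.12), which did not pass over all genes (adjusted p = 0.156, unadjusted p = 0.0033). DESeq2 gave an adjusted p of 0.0407, and the authors' deposited table lists 0.0418 with a log2 fold change of -0.46. No fit that left out a library called it (adjusted p from 0.0545 to 0.439). Ctsc lies at chr7:88278024-88315861.

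Srgn, the gene of the granule proteoglycan, had 196, 306 and 264 CPM in controls and 113, 131, 159 and 109 CPM in knockouts. Its mean fell from 255 ± 56 (SD, n = 3) to 128 ± 23 CPM (SD, n = 4), a 2.0-fold fall (log2 fold change -1.0, SE 0.17, adjusted p = 0.0389). Srgn lies at chr10:62493833-62527445. It did not pass with control replicate 2 or 3, or knockout replicate 1, 2 or 4, left out (adjusted p from 0.108 to 0.165). Ms4a3, at chr19:11629499-11640851, had 74.9, 117 and 106 CPM in controls and 42.2, 32.4, 47.2 and 26.7 CPM in knockouts. Its mean went from 99.5 ± 22.1 (SD, n = 3) to 37.1 ± 9.3 CPM (SD, n = 4), a 2.68-fold fall (log2 fold change -1.42, SE 0.21, adjusted p = 0.0174). It did not pass with control replicate 2 or 3, or knockout replicate 1 or 2, left out (adjusted p from 0.0552 to 0.0971). For both genes each knockout lay below each control.

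**Figure D1:**
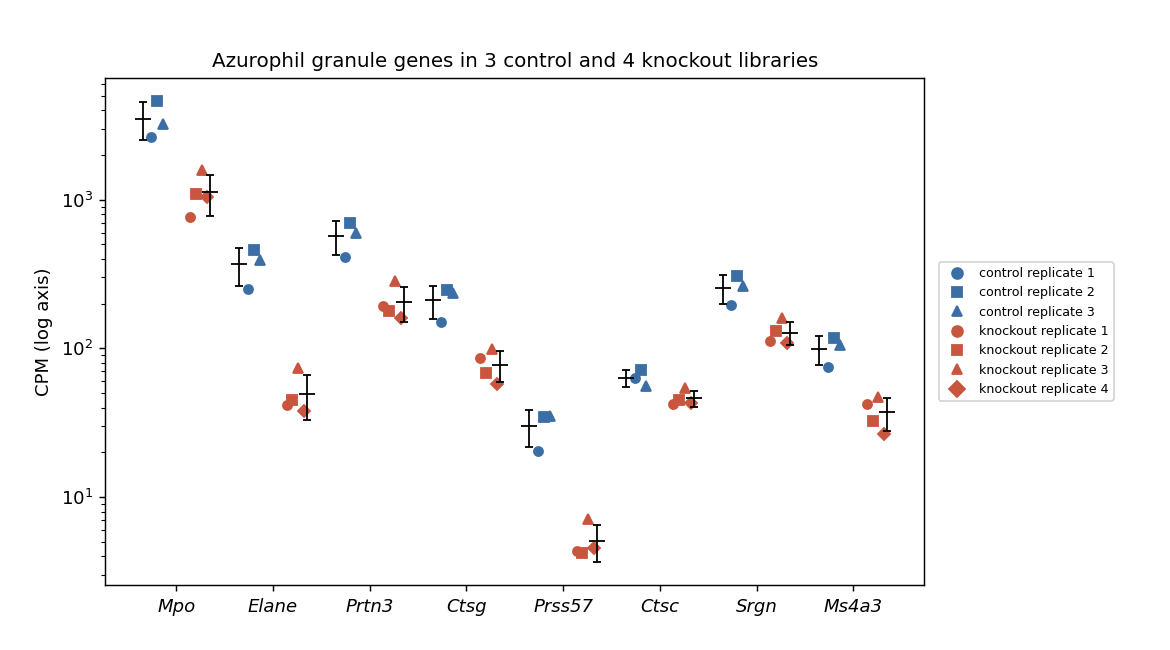
Level of each of the 8 genes in every library, in CPM on a log axis, with controls (n = 3) and knockouts (n = 4) side by side and bars for the mean ± SD of each group. In each gene the 4 knockouts lie below the 3 controls, with the widest gap in Elane and the narrowest in Ctsc.

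The libraries kept much the same order across the genes. Knockout replicate 3 was the highest knockout in 8 of 8 genes, and knockout replicate 4 the lowest in 5. Control replicate 1 was the lowest control in 7 of 8 and control replicate 2 the highest in 7 of 8. Summed over the 8 genes, control libraries held 3831, 6547 and 4944 CPM and knockout libraries 1282, 1599, 2320 and 1478 CPM. The genes together took from 0.380% to 0.671% of all counts in controls and from 0.125% to 0.227% in knockouts. Mpo made up 65.8% to 70.4% of these counts in controls and 59.3% to 70.2% in knockouts. Elane's share went from between 6.56% and 7.93% to between 2.59% and 3.26%, while that of Srgn went from between 4.68% and 5.33% to between 6.87% and 8.79%.

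Ratios of counts within a library do not depend on how libraries are scaled, and were used to ask which genes fell by unequal amounts. The log2 ratio of each of the other 7 genes to Mpo, and the 3 ratios among Elane, Prtn3 and Ctsg, were compared between groups with a two-sided exact permutation test over the 35 ways to divide 7 libraries into 3 and 4, adjusted over the 10 ratios. The smallest p that this test can give is 0.0286. Of the 10 ratios 6 reached it, with an adjusted p of 0.0476. In the same 6 the groups did not overlap, which follows from reaching the smallest p. The ratios share genes and are not independent, and the adjusted p depends on how many of them reached the smallest p.

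Elane fell further than Mpo and further than both of its close relatives. The log2 ratio of Elane to Prtn3, the adjacent gene, was -0.72, -0.61 and -0.61 in controls and -2.20, -2.01, -1.93 and -2.08 in knockouts. This is a difference of -1.41 (exact permutation p = 0.0286, adjusted p = 0.0476), with SDs of 0.065 in controls and 0.12 in knockouts. There were 1.57 Prtn3 counts for each Elane count in controls and 4.15 in knockouts. Against Ctsg the Elane log2 ratio changed sign, from 0.79 ± 0.09 (SD, n = 3) to -0.67 ± 0.26 (SD, n = 4; exact permutation adjusted p = 0.0476). Elane counts were 1.73 times those of Ctsg in controls and 0.63 times in knockouts. Relative to Mpo, Elane fell by a further 1.23 on the log2 scale and Prss57 by a further 0.89 (exact permutation adjusted p = 0.0476 for each).

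Ctsc and Srgn fell less than Mpo. The log2 ratio of Ctsc to Mpo went from -5.76 ± 0.32 (SD, n = 3) to -4.56 ± 0.29 (SD, n = 4), a difference of 1.20, and that of Srgn to Mpo from -3.77 ± 0.14 (SD, n = 3) to -3.10 ± 0.25 (SD, n = 4), a difference of 0.67 (exact permutation adjusted p = 0.0476 for each). For Prtn3, Ctsg and Ms4a3 the ratios to Mpo differed between groups by 0.17, 0.22 and 0.23 (exact permutation adjusted p = 0.735, 0.762 and 0.762), and the groups overlapped. The ratio of Prtn3 to Ctsg was 1.44 ± 0.08 (SD, n = 3) and 1.39 ± 0.16 (SD, n = 4) on the log2 scale, a difference of -0.05 (exact permutation adjusted p = 0.771). Knockout replicate 1 stood apart in the ratios to Mpo, with a Ctsg-to-Mpo log2 ratio of -3.15 against -4.00 to -4.17 in the other knockouts. Without it the differences became -0.0070 for Ctsg to Mpo, -0.017 for Ms4a3 to Mpo and 0.026 for Prtn3 to Ctsg.

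**Figure D2:**
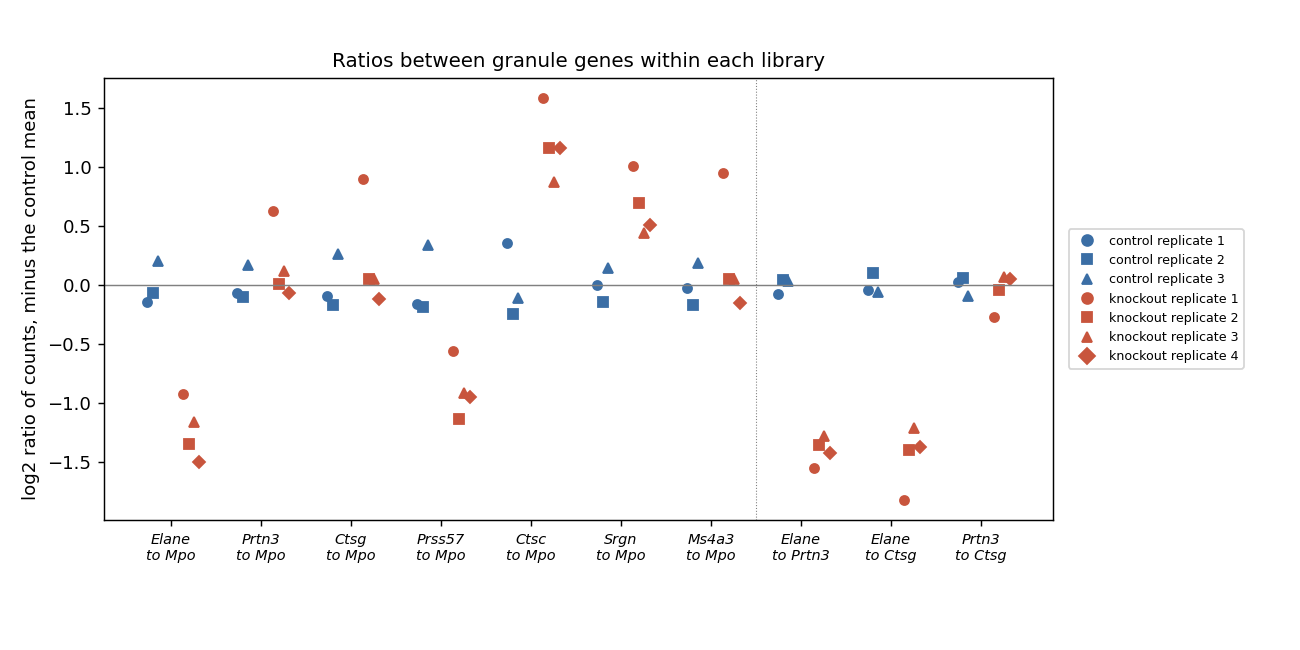
The 10 within-library log2 count ratios in each control (n = 3) and knockout (n = 4) library, each plotted as the difference from the control mean of that ratio. The groups are apart in 6 ratios, among them Elane to Prtn3 (mean difference -1.41), and overlap in the other 4.

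To order the genes by level, CPM was divided by the length of the longest coding transcript in kilobases (CPM per kb), whereas the ranks and count ratios given above take no account of length. In the controls the order was Mpo (1276 ± 363 CPM per kb, SD, n = 3), Prtn3 (558 ± 141), Elane (374 ± 108), Ctsg (211 ± 53), Srgn (148 ± 32), Ms4a3 (98.5 ± 21.8), Ctsc (19.7 ± 2.5) and Prss57 (10.5 ± 3.0). In the knockouts it was Mpo (408 ± 126 CPM per kb, SD, n = 4), Prtn3 (199 ± 53), Ctsg (77.7 ± 18.6), Srgn (74.0 ± 13.4), Elane (50.6 ± 16.8), Ms4a3 (36.7 ± 9.2), Ctsc (14.3 ± 1.7) and Prss57 (1.78 ± 0.49). Elane went from place 3 to place 5, and the other genes kept their order. Library ranges of neighbours in the order overlapped for Prtn3 and Elane, Ctsg and Srgn, and Srgn and Ms4a3 in the controls. In the knockouts they overlapped for Ctsg and Srgn, Srgn and Elane, and Elane and Ms4a3. Within single libraries the order of these pairs nevertheless held in 3 of 3 controls for Prtn3 over Elane, Ctsg over Srgn and Srgn over Ms4a3, and in 4 of 4 knockouts for Srgn over Elane and for Elane over Ms4a3. Ctsg stood above Srgn in 2 of 4 knockouts. With the shortest complete coding transcript, a choice made after the data were seen, Srgn stood in place 4 in controls and 3 in knockouts.

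Elane, Prtn3 and Prss57 lie close together on chromosome 10, with 91.6 kb between Prss57 and Elane. Genes around the 8 were examined to ask whether their neighbours had also changed. Within 100 kb there were 50 other protein-coding genes, of which 30 were tested and 1 was called. That gene was Epx, the eosinophil peroxidase, 59.6 kb from its relative Mpo, which fell from 61.9 to 3.39 mean CPM (log2 fold change -4.20, adjusted p = 0.0013). Lpo, the lactoperoxidase gene 2.0 kb from Mpo, had 1.35 CPM in controls and 0.515 CPM in knockouts (adjusted p = 0.454). Near Elane, the Mediator subunit gene Med16 at 6.5 kb had 61.5 and 61.9 CPM (adjusted p = 0.979), and the splicing regulator gene Ptbp1 had 639 and 659 CPM (adjusted p = 0.864). Plppr3, 4.7 kb from the RefSeq span of Prtn3 on its far side from Elane, had 59.7 and 33.3 CPM (log2 fold change -0.84, adjusted p = 0.103). The GENCODE M21 span of Prtn3 starts at 79874476, within Plppr3, which ends at 79874958. Palm had a log2 fold change of -0.86 (adjusted p = 0.131). Cfd, a serine protease of the complement system in the same stretch, had a mean of 0.12 CPM in controls and 0.034 CPM in knockouts and was not tested.

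**Figure D3:**
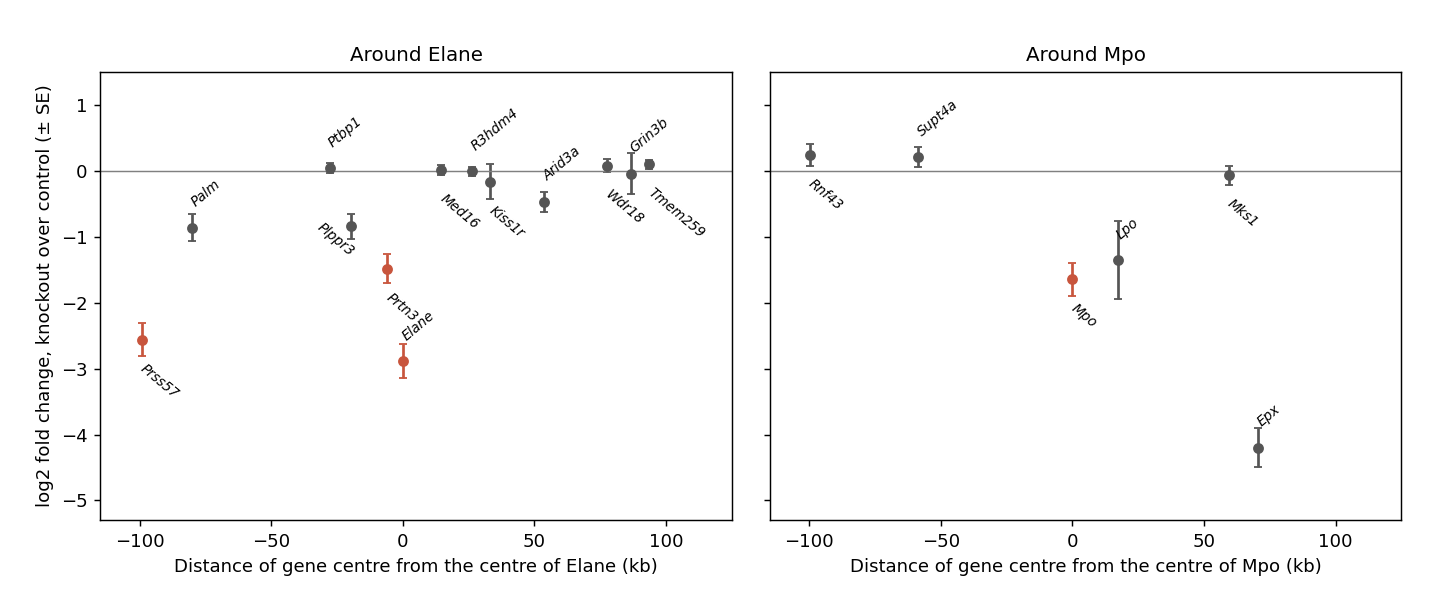
Log2 fold change (knockout over control, ± SE) of tested protein-coding genes around Elane and around Mpo against the distance of each gene's centre, in kilobases. Granule genes are in red. Prss57, Prtn3 and Elane lie well below 0 among genes that did not pass the test, and Epx near Mpo is at -4.20.

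At Ctsg 9 neighbours were found and 1 was tested, the basophil protease gene Mcpt8, with 9.10 and 4.81 CPM (adjusted p = 0.388). Around Srgn 5 neighbours were tested and 0 passed (lowest adjusted p = 0.666); Vps26a, a retromer subunit gene, had 80.9 and 80.7 CPM. Around Ms4a3 3 neighbours were tested, all MS4A genes, and 0 passed. Ms4a2, a subunit of the IgE receptor, had 9.59 and 8.62 CPM (adjusted p = 0.900). Ms4a6d had 1.24 and 0.631 CPM (log2 fold change -0.96, adjusted p = 0.586). Ms4a6b had 3.19 and 1.85 CPM (log2 fold change -0.78, adjusted p = 0.536). Ctsc had no protein-coding neighbour within the window.

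Other genes of the same granule and its supply were examined as lists, each described by its count of called genes and its median log2 fold change. Where a count of lower or higher genes is given, 47.6% of all tested genes were lower. Of 18 tested genes for other azurophil and lysosomal granule proteins, 0 passed in edgeR (2 lower at an unadjusted p under 0.05, 1 by DESeq2), with a median of -0.13. The DESeq2 call was Arsb, the lysosomal arylsulfatase B, at 59.1 and 33.8 CPM (edgeR adjusted p = 0.103). Of 9 tested genes for lysosomal cysteine proteases, 8 of them papain family cathepsins like Ctsc and the other Lgmn, 0 passed (2 lower unadjusted, 1 by DESeq2), with a median of -0.10. Lgmn, which encodes the asparaginyl endopeptidase legumain and is not of the papain family, was the DESeq2 call, with 25.0 and 13.2 CPM (edgeR adjusted p = 0.185).

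Of 9 tested members of the haem peroxidase family and its chaperones, Epx passed and all 9 were lower (3 unadjusted, 2 by DESeq2; median -0.32). Ptgs1, which encodes the cyclooxygenase COX-1, had 75.7 and 42.2 CPM (edgeR adjusted p = 0.0702) and was called by DESeq2, as was Epx. Of 9 tested granzymes and mast cell proteases, serine proteases apart from the carboxypeptidase gene Cpa3, 0 passed in edgeR (2 lower unadjusted, 0 by DESeq2; median -0.11). A further 8 had no read in any library. Of 13 tested serine protease inhibitors 1 fell, Serpinb10, from 12.0 ± 6.2 (SD, n = 3) to 0.187 ± 0.075 CPM (SD, n = 4; log2 fold change -5.99, adjusted p = 0.0013). The list's median was 0.12. That list includes Serpina1a to Serpina1e, and Serpina1a is also among the hepatocyte markers, so the median does not describe inhibitors of blood cells alone. Serpinb1a, which encodes a cytosolic inhibitor of neutrophil elastase, proteinase 3 and cathepsin G, had 131 ± 35 CPM (SD, n = 3) and 57.37 ± 14.45 CPM (SD, n = 4; adjusted p = 0.0508) and was called by DESeq2.

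Of 20 tested genes of granule sorting and release 0 passed (5 lower unadjusted, 1 by DESeq2), with a median of -0.12. Lyst, a regulator of lysosome-related granule size, had 77.8 and 43.2 CPM (log2 fold change -0.85, adjusted p = 0.159). Of 25 tested genes that build glycosaminoglycan chains, such as those on serglycin, 0 passed in edgeR, with 7 lower and 1 higher unadjusted and a median of -0.12. Chst15, a chondroitin sulfotransferase gene, had 20.3 and 10.2 CPM (adjusted p = 0.074), and Chpf, a chondroitin polymerising factor gene, had 7.80 and 14.0 CPM (adjusted p = 0.0541). DESeq2 called Xylt1 and Chst15 as lower and Chpf as higher. Of 5 tested other MS4A genes all 5 were lower and 0 passed in edgeR, DESeq2 or unadjusted (median -0.70).

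Among 17 tested transcription factors of azurophil granule genes, Gfi1, a repressor needed for granulocyte formation, was the 1 that fell (44.4 to 14.46 mean CPM, log2 fold change -1.62, adjusted p = 0.0097). It lost its call without knockout replicate 2 (adjusted p = 0.0509). The list's median was -0.24, and DESeq2 called Gfi1 and Cebpd. Cebpd, a C/EBP family member, had 16.8 and 8.57 CPM (adjusted p = 0.095), and Spi1, which encodes PU.1, had 80.2 and 54.9 CPM (log2 fold change -0.54, adjusted p = 0.386). Of 17 progenitor and granulocyte receptors 16 were lower and 0 passed in edgeR (6 lower unadjusted, 4 by DESeq2; median -0.47). Kit, the stem cell factor receptor, had 294 ± 24 CPM (SD, n = 3) and 195 ± 24 CPM (SD, n = 4; adjusted p = 0.0558), and Csf3r, the G-CSF receptor, had 60.7 and 26.5 CPM (adjusted p = 0.0949). Late neutrophil granule genes, made after the azurophil stage, had 3 of 11 fallen: Camp (log2 fold change -5.31), Fcnb (-3.12) and Hp (-1.65), with a median of -1.02. Without a library the Hp call was lost in 5 fits (control replicate 2 or 3, knockout replicate 1, 2 or 4; adjusted p from 0.115 to 0.189) and the Fcnb call in 2 (control replicate 3, knockout replicate 2; 0.0540 and 0.0552).

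**Figure D4:**
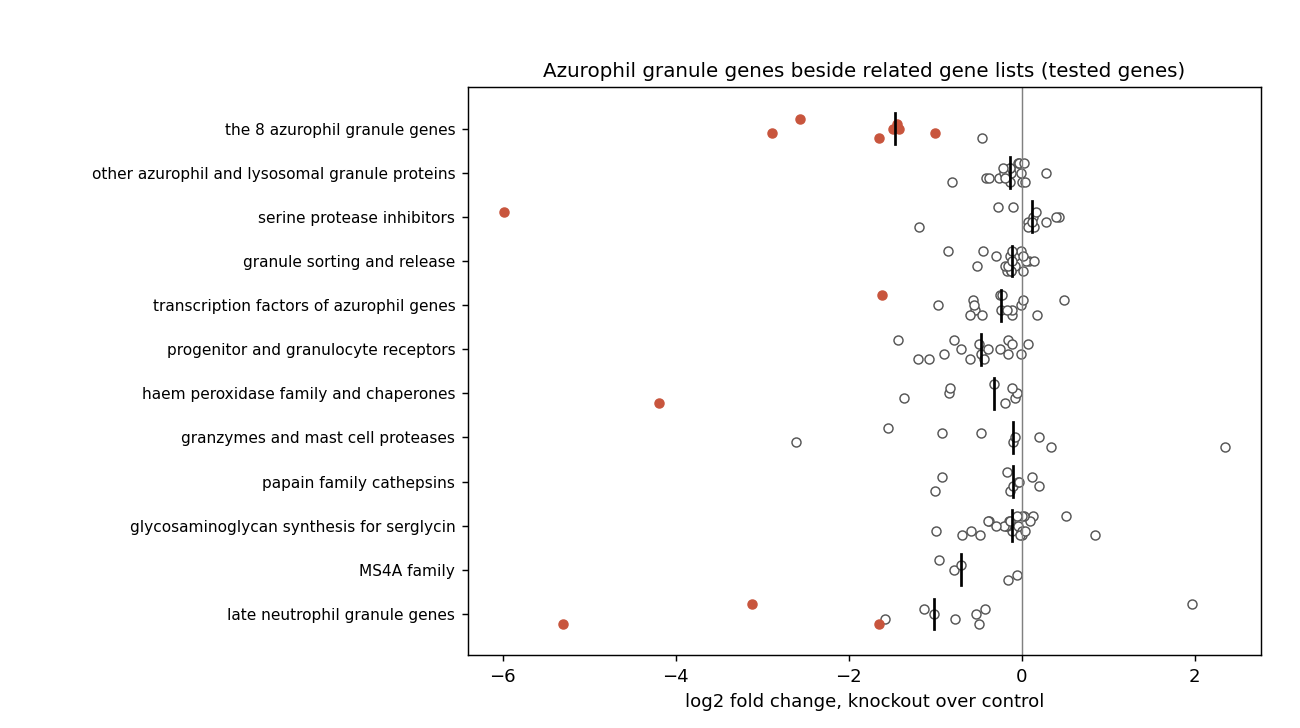
Log2 fold change (knockout over control) of the 8 granule genes and of each tested gene in 11 related lists, with vertical bars for medians and filled points for genes called by edgeR. Beside 7 of the 8 granule genes, the called genes are Serpinb10, Gfi1, Epx, Camp, Fcnb and Hp.

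The genes whose pattern over the 7 libraries was most like the mean profile of the 8 were sought among 9356 genes averaging 10 CPM or more, by the root mean square difference of centred log2 CPM. The closest was Pxylp1, a phosphatase that acts on the xylose of the glycosaminoglycan linkage region, at 0.148 (36.5 CPM on average in controls and 10.6 CPM in knockouts). Next came Tfec, a gene of the MiT transcription factor family (0.180), and Gfi1 (0.189), followed by Cldn15, Nkg7, Fgl2, Olr1, Serpinb1a, Hp and B4galt6 (0.195 to 0.234). The profile is low in knockouts, so a lower level in these 10 genes follows from how they were chosen. Among the 8 themselves the difference from the mean profile was 0.079 for Prtn3, 0.161 for Ctsg, 0.172 for Ms4a3, 0.196 for Mpo, 0.315 for Srgn, 0.473 for Prss57, 0.605 for Ctsc and 0.642 for Elane. Prtn3 thus lay nearest to the common profile, and Elane and Ctsc lay farthest. Each gene is itself part of that mean, and the measure depends on how far a gene fell. This order therefore partly restates the fold changes.

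Markers of other cell types that the fraction could hold were summed in each library. By these sums the groups were apart for erythroid and macrophage markers and overlapped for the other cell types below. Summed progenitor and granulocyte receptors (17 genes) were also apart, narrowly, at 767 to 1180 CPM in controls and 464 to 765 CPM in knockouts. Summed erythroid markers (10 genes) ran from 1568 to 3212 CPM in controls and from 3472 to 5191 CPM in knockouts, with 9 of 10 higher, 0 called by edgeR (6 higher unadjusted) and 3 by DESeq2. Macrophage markers (8 of 10 tested) ran from 114 to 196 CPM and from 26.8 to 76.4 CPM, with 8 of 8 lower, 0 called by edgeR (6 lower unadjusted) and 5 by DESeq2. Monocyte markers (8 genes) ran from 425 to 579 CPM and from 302 to 666 CPM, with 7 of 8 lower (median log2 fold change -0.74, 3 lower unadjusted). F13a1, the A subunit of coagulation factor XIII, was the 1 called by edgeR, DESeq2 also called Ly6c2, and Fn1, the fibronectin gene, was higher (log2 fold change 0.56, adjusted p = 0.645). Although the monocyte sums overlapped, F13a1 and Ly6c2 had every knockout below every control. These are 2 of the 8 genes, against 6.81% of tested genes. Mast cell, basophil and eosinophil markers (9 of 10 tested) ran from 387 to 795 CPM and from 296 to 829 CPM, and Epx was the 1 that fell. Megakaryocyte markers ran from 767 to 1417 CPM and from 518 to 1299 CPM with 0 of 9 called by edgeR (1 lower unadjusted) or DESeq2. Hepatocyte markers ran from 10578 to 18544 CPM and from 13393 to 23961 CPM, with 10 of 10 higher and 0 called by edgeR, by DESeq2 or unadjusted. Of 10 lymphoid markers 3 could be tested and 0 were called by edgeR, DESeq2 or unadjusted, with sums from 7.65 to 14.0 CPM and from 5.95 to 32.5 CPM. In none of these lists were any defining markers at 0 in every library. Knockout replicate 3, the highest knockout in each of the 8 granule genes, was also the highest for summed late neutrophil genes (1754 CPM). The same held for progenitor and granulocyte receptors (765 CPM) and for erythroid, lymphoid, and mast cell, basophil and eosinophil markers. It was the lowest knockout for summed monocyte (302 CPM), megakaryocyte (518 CPM) and hepatocyte (13393 CPM) markers. The monocyte sum hides single genes that went the other way. Knockout replicate 3 was the highest knockout for F13a1 (10.7 CPM), Ly6c2 (11.7), Ccr2 (12.4), Csf1r (52.0) and Ms4a6c (12.6). The other genes of that list, Fn1 among them, therefore set the order of its sum. The part of these differences in the fall of the granule genes was not tested.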

How the data were processed

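RNA of 7 libraries was analysed from the deposited counts, raw read counts per gene symbol. The submitters' processing notes name HISAT2, featureCounts, DESeq2 and mm10; versions, annotation and strand setting: not given in the sources used here. The authors' deposited table holds log2 fold changes, their standard errors, p-values and a size-factor-scaled signal. Of the symbols, 14 turned into dates were read back as septins.

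Counts were filtered with filterByExpr, scaled by TMM and tested with edgeR 4.0.16 (R 4.3.3; glmQLFit, glmQLFTest, group as the only term, all 7 libraries), adjusted after Benjamini and Hochberg. Log2 CPM used a prior count of 2 and ratios a pseudocount of 0.5. The fit was tested on simulated data. Gene coordinates, neighbours and promoters are RefSeq's (GRCm38.p6), matched by symbol for 8 and 7 of the 8 genes; transcript lengths are from GENCODE M21. The 8 genes and the 18 lists were chosen with earlier results of these data known. Named beyond the 8 are up to 4 tested genes of each list with the smallest p, protein-coding genes within 100 kb and the 10 genes most alike.

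Alternatives were DESeq2 size factors, total counts, no filter, DESeq2 1.42.0, a minimum mean of 1 CPM, limma-voom (limma 3.58.1), robust dispersion, a block on replicate number, a ratio pseudocount of 5 and leaving out each library. No 2 libraries of a group were duplicates: their chi-square per degree of freedom was 8.50 or more.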

Additional observations from a re-analysis of the deposited data

Results flagged for a closer look

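Of 19 measures in the 4 knockout libraries (levels and ratios of the granule genes), 2 had a library whose gap to the nearest other, as a share of the range, passed Dixon's critical value for 4 samples; chance flags about 1 in 20. For Prss57 the share was 0.887, since knockout replicate 3 stood at 7.15 CPM and the others between 4.20 and 4.53 CPM; it was still below every control. For the log2 ratio of Ctsg to Mpo it was 0.832, since knockout replicate 1 stood at -3.15 and the others between -4.00 and -4.17. In neither was the cause tested.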

How the results depend on the processing

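The count of 82 changed genes over all tested genes went to 228 with no filter on low counts and to 386 with DESeq2, and to between 20 and 120 without 1 library; the cause was not tested. Of the 8 granule genes 7 were called with DESeq2 size factors, total counts, no filter, a minimum of 1 CPM, limma-voom and robust dispersion, and 8 by DESeq2, which added Ctsc. Leaving out 1 library left between 2 and 7 called, Elane and Prss57 each time. All 120 recomputed fold changes kept their sign, and each of the 24 lost calls came from leaving out a library. The 6 unequal ratios stayed 6 with a pseudocount of 5. Without 1 library the count was 0 to 0, by construction, since the smallest p is then 0.0667 without a control and 0.1 without a knockout. Signs turned only without knockout replicate 1, for Ctsg to Mpo (-0.0070 to 0.353 over the 7 fits), Ms4a3 to Mpo (-0.0172 to 0.353) and Prtn3 to Ctsg (-0.0941 to 0.0256). The labels give libraries of both groups the same replicate numbers, but same-numbered libraries did not deviate together (correlations 0.17, -0.022 and -0.0052). With a replicate block 121 genes and 7 of the 8 were called.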
